A study of Homo sapiens with 4 samples.

Results

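The library described here is the untreated sample of clone AB7, a derivative of DG75, an established Burkitt's lymphoma cell line of B cell origin. It was picked by its label alone, no doxycycline at 0 h, and is 1 of the 4 libraries in the series. In this clone, per the labels, native BCL6 is disrupted (Bcl6-/-) and an HA-tagged BCL6 is carried under tetracycline control (tetBCL6-HA). Cells were grown in RPMI medium. The other 3 libraries, grown with doxycycline at 1 µg/ml for 16, 48 or 96 h, were not used for any value below. AB7 is a single clone and a single array was made from it without doxycycline, so the levels have no replicate, no standard deviation and no test.

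Levels were read from 28869 probe sets on a 1-colour array. Of these, 19933 carried exactly 1 gene symbol, and they measured 19084 genes, each represented by its highest probe set. Values are log2 intensities, in which 1 unit is a factor of 2, and gene levels ran from 4.55 to 14.04 with a median of 6.26. Burkitt's lymphoma is a tumour of germinal centre B cells. In the germinal centre, B cells divide quickly, mutate their antibody genes and are selected for binding, and the repressor BCL6 holds back the activation and plasma cell programmes while this goes on. The levels below show which parts of that identity, and of the general machinery of a growing cell, gave signal in this library.

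Each gene was placed in a band by its level. The floor was set at 5.56, the 95th percentile of 372 olfactory receptor genes, which serve smell and are not known to be used by B cells. The high band began at 9.17, the 90th percentile of all genes. A further silent group of 132 genes (keratin-associated proteins, taste and vomeronasal receptors, beta defensins and crystallins) reached 7.04 at its 95th percentile, so genes between 5.56 and 7.04 are called dim and are not read as expressed. That limit was added after the values were seen. The group was uneven, as keratin-associated proteins reached 7.89, type 2 taste receptors only 5.40 and beta defensins only 5.98. Middle here means above 7.04 and below 9.17. By construction 10% of all genes were high, and 28.0% were middle, 26.5% dim and 35.5% at the floor. List counts below are to be read against these shares.

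**Figure D1:**
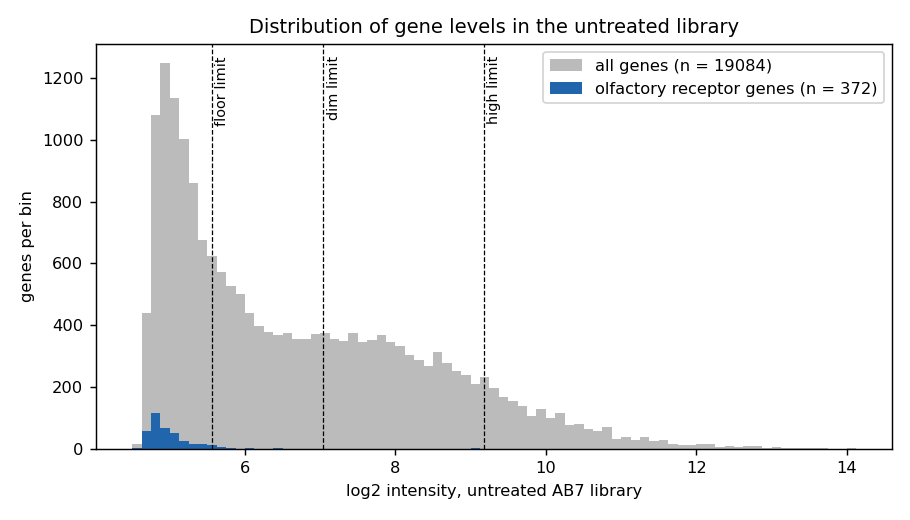
Histogram of log2 intensity for 19084 genes of the untreated library (grey) and for 372 olfactory receptor genes (blue), with the floor limit (5.56), the dim limit (7.04) and the high limit (9.17) as dashed lines. The main peak of all genes lies at the level of the olfactory receptor genes, whose median was 4.89, and a long shoulder reaches to the right.

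A level on such an array depends on the probes as well as on the RNA, so genes are compared by band, and ranks within a band, where given, describe signal and not amounts of RNA. For the 621 genes with several single-symbol probe sets, the probe sets of a gene spanned a median of 0.33. Among the 308 whose highest probe set lay above the dim limit, the median span was 0.86 and the upper quartile 2.60, and for 45 of them the lowest probe set was at the floor. PPIA, the abundant cyclophilin A, was read at 5.84 by the lowest of its 3 probe sets and at 12.85 by the highest. NPM1, an abundant nucleolar protein, had 1 single-symbol probe set and was read at 5.03. A floor value is therefore a low signal of that probe set, not proof that the RNA was missing. In the closest cases at the floor limit, LTK (5.55) lay inside it and ALAS2 (5.56) outside. At the high limit, EEF1A1 (9.18) lay inside and UBE2C (9.17) outside.

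B cell identity was visible in most of its markers. Of 10 B cell markers, 3 were high, 4 middle, 2 dim and 1 at the floor, with a median of 8.44. The signalling chains of the antigen receptor, CD79A and CD79B, were high at 9.67 and 9.53, and so was FCRLA (10.77), an Fc receptor-like protein of B cells. PAX5, the factor that commits cells to the B lineage, was middle at 8.25. The inhibitory receptor CD22 was at 8.85 and the Src family kinase BLK at 8.54. EBF1, a partner of PAX5 in B cell specification, was dim at 6.49. MS4A1, which encodes CD20, was at the floor (5.21), at percentile 24.2 of all genes, and only 1 single-symbol probe set read it. Little RNA and a probe set that reads poorly cannot be told apart here, nor, in RNA from a whole culture, can a low level in all cells and a higher level in few of them.

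Markers of other cell types gave little signal. None of the 54 measured markers of T, NK, monocyte, erythroid, megakaryocyte, fibroblast, epithelial, endothelial and neuronal cells was high, and those above the dim limit were 3 T cell markers. CD4, a coreceptor of T cells and also found on monocytes, was at 8.74, and the T cell receptor chains CD3E and CD3G were at 7.42 and 7.12. CD3D (5.11), CD2 (5.09), CD28 (5.11) and CD8B (5.31) were at the floor. All 5 endothelial markers were at the floor, as were the monocyte markers LYZ (5.09), CSF1R (5.10) and CD163 (4.87). VIM, the vimentin filament of mesenchymal and many blood cells, was at the floor (5.21), and of 22 genes for adhesion and matrix of other tissues 18 were at the floor.

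Germinal centre genes were mostly above the dim limit. Of 27 measured members, 5 were high, 14 middle, 6 dim and 2 at the floor. BCL6 itself was high in this library, with a level of 11.12 at percentile 98.7 of all genes. The library is labelled as a clone without native BCL6 and as cells without doxycycline. The labels as given above name tetracycline control, but not whether doxycycline turns the transgene on or off. The high BCL6 signal is therefore not read for or against them. The labels do not say which exons are disrupted or which exons the BCL6 probe set covers, so native transcript and transgene cannot be told apart. MME, which encodes the surface peptidase CD10, was high at 10.62. TCL1A, an AKT coactivator of immature and germinal centre B cells, was high at 9.77, and RGS13, a brake on chemokine receptor signalling, at 9.46.

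The receptors that keep germinal centre B cells in place were in the middle band. S1PR2 was at 8.41 and P2RY8 at 8.76, and GNA13, the G protein through which both confine the cells, was high at 9.34. The sphingosine receptor S1PR1, through which lymphocytes leave tissue, and GPR183, which draws activated B cells to the follicle edge, were at the floor (5.03 and 5.26). SERPINA9, a serpin of germinal centre cells, was at 8.88, GCSAM, an adaptor that limits their motility, at 7.83, and LMO2, a transcriptional cofactor, at 7.30. CD38, a surface ectoenzyme that marks germinal centre and plasma cells, was dim at 5.67. Among genes of the germinal centre zones, CXCR4, the receptor that holds cells in the dark zone, was high at 10.88. The dark zone factor FOXO1 was middle at 8.29, as were the light zone markers CD83 and CD86 at 8.11 and 8.19. Of those 10 zone genes, 2 were high, 6 middle and 2 dim.

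Early and late stages were listed in the same way. Of 12 early B cell genes, 9 were at the floor. They included the recombinases RAG1 (4.92) and RAG2 (4.74), the terminal transferase DNTT (5.27) and the interleukin 7 receptor IL7R (4.90). LEF1, a Wnt pathway factor of precursor B cells, was high at 9.44. VPREB3 and the surrogate light chain gene IGLL1 were middle at 7.73 and 7.37, and VPREB1 was at the floor (5.49). IGLL1 shares sequence with light chain constant genes, so its value is uncertain. Of 12 plasma cell genes, 1 was high, 4 middle, 3 dim and 4 at the floor, shares near those of all genes. Among the floor genes were the 2 factors that drive the plasma cell fate, PRDM1 at 4.95 and IRF4 at 5.21. JCHAIN, the joining chain of secreted IgM and IgA, was high at 11.58, and XBP1, the factor of the secretory stress response, was middle at 8.84. Memory and activation genes were mixed, with 1 high, 5 middle, 3 dim and 3 at the floor. The high share was 8.33% and the floor share 25%, against 10% and 35.5% of all genes. CD70, the ligand of CD27, was high at 9.78 and CD27 itself middle at 7.45, whereas CD44, an adhesion receptor of activated cells, was at the floor (5.22).

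**Figure D2:**
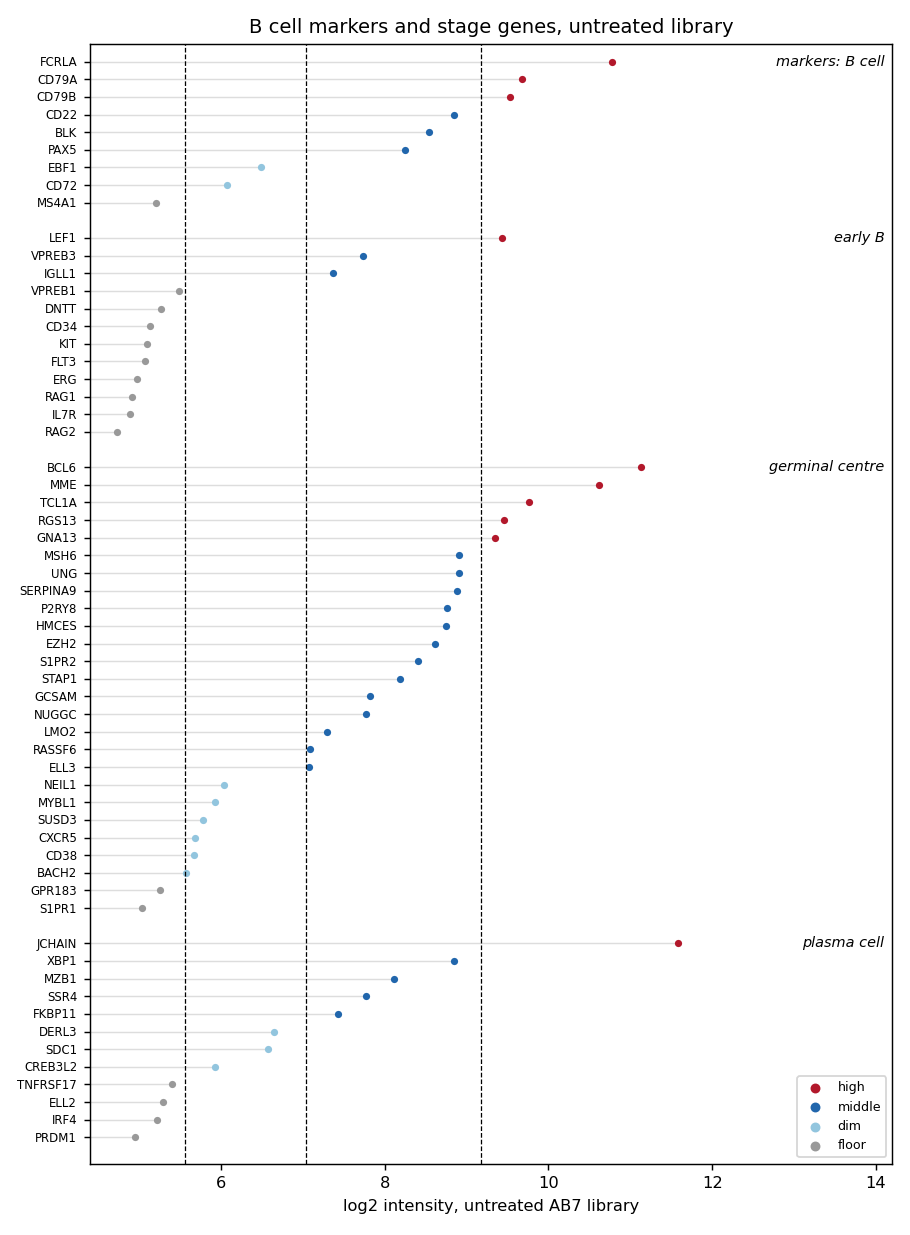
Log2 intensity of B cell markers and of early B, germinal centre and plasma cell genes in the untreated library, 1 point per gene for the members reported here, coloured by band (grey floor, light blue dim, dark blue middle, red high), with the 3 limits (5.56, 7.04 and 9.17) as dashed lines. Germinal centre genes reach the high band in 5 of 27 cases, while 9 of 12 early B cell genes lie at the floor.

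Immunoglobulin probe sets lay at both ends of the scale. The probe set named for IGHA1 was at 13.05, that named for the heavy chain locus at 12.68 and that named for IGKV3D-11 at 10.68. The probe set named for the kappa constant gene IGKC was at 4.93 and that for IGKV4-1 at 4.83. These genes share long stretches of near-identical sequence, so which segment each probe set reads is uncertain. Of 9 such segments measured, 3 were high, 2 dim and 4 at the floor.

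Transcription factors of the B lineage were present in breadth. Of 39 measured, 7 were high, 23 middle, 4 dim and 5 at the floor, with a median of 7.90 against 6.26 over all genes. IRF8, a factor of germinal centre B cells, was high at 11.37, in contrast to IRF4 from the same family. The E proteins TCF3 and TCF4, which switch on B cell genes, were high at 9.70 and 9.36, and their inhibitor ID3 was middle at 8.92. ETS1 and ELF1, of the ETS family, were high at 9.44 and 10.80, and MEF2C, a factor downstream of the antigen receptor, at 9.23. SPI1 was at 8.29 and its relative SPIB at 7.69. Ikaros family members IKZF3, IKZF1 and IKZF2 were middle at 9.11, 8.20 and 7.10. The octamer factors POU2F1 and POU2F2 and their coactivator POU2AF1 were middle at 7.47, 7.12 and 7.68. At the floor beside PRDM1 and IRF4 were ZEB2 (5.21), ZBTB20 (5.03) and AFF3 (4.99), and BACH2, a repressor of plasma cell fate, was dim at 5.58.

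Factors of other lineages were low as a group, with 1 high, 3 middle, 22 dim and 10 at the floor of 36 measured. LEF1 was the high member. The middle ones were TP63, a factor known from epithelia, at 8.04, LYL1, a factor of blood precursors, at 7.50, and CEBPB, a factor of myeloid and liver cells, at 7.36. The erythroid factor GATA1 (5.94), the T cell factors GATA3 (6.79) and BCL11B (5.77) and the liver factor HNF4A (6.27) were dim. TAL1 (5.35), SOX2 (5.42) and MYOD1 (5.22) were at the floor.

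The antigen receptor pathway was mostly above the dim limit. Of 30 members measured, 8 were high, 14 middle, 6 dim and 2 at the floor. Besides CD79A and CD79B, the high members included PLCG2, the phospholipase that makes second messengers (9.79), BTK, the kinase that activates it (9.42), and the inositol phosphatase INPP5D, which dampens the signal (9.69). CSK, which restrains Src family kinases, was high at 9.51, and the adaptors GRB2 and PIK3AP1 at 9.46 and 9.27. LYN, the first kinase of the cascade, was middle at 8.68 and SYK, the next, at 7.44. The adaptor BLNK was dim at 6.64. The protein kinase C gene PRKCB was at the floor (5.48), and so was BANK1 (4.86), a B cell scaffold.

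Antigen presentation by class II molecules was also represented, with 3 high, 8 middle, 3 dim and 0 at the floor among 14 genes. HLA-DRA was high at 10.60, HLA-DPA1 at 10.23 and CD74, the invariant chain, at 10.48. The peptide editors HLA-DMA and HLA-DMB were middle at 8.13 and 8.47, while HLA-DOA and HLA-DOB, which oppose them in B cells, were dim at 5.61 and 6.38. CIITA, the master regulator of these genes, was dim at 6.20. For class I, B2M, the shared light chain, was high at 10.88, and the peptide transporters TAP1 and TAP2 were middle at 7.51 and 8.10. NLRC5, the class I counterpart of CIITA, was dim at 5.80.

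Chemokine receptors were nearly all dim or at the floor. Of 19 measured, 13 were at the floor and 5 dim, and CXCR4 stood alone in the high band. CXCR5, which guides B cells to follicles, was dim at 5.68, and CCR7, which guides cells to T cell zones, at 5.97. Among 26 lipid and positioning receptors and their G proteins, 12 were at the floor. They included the lysophospholipid receptors P2RY10 (4.89) and GPR34 (4.71) and the leukotriene receptors CYSLTR1 (5.46) and CYSLTR2 (4.77). GPR132 was middle at 8.10 and LPAR5 at 7.42. Of 121 orphan, purine and lipid G protein coupled receptors taken by symbol, 0 were high and 70 were at the floor, and the top of that family held P2RY8, S1PR2 and GPR132.

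Among 35 cytokine receptor genes, 2 were high, 5 middle, 9 dim and 19 at the floor. The high ones were IL2RG, the common gamma chain shared by several interleukin receptors (9.24), and IL10RB (9.29). IL21R, the receptor for the T follicular helper cytokine, was middle at 8.76, IL4R at 7.76 and IL10RA at 7.81. Each of these receptors had its partner chain above the dim limit, IL2RG for IL21R and IL4R, and IL10RB for IL10RA. IL2RA (5.11), IL7R and IL3RA (4.93) were at the floor, and IL6R, the interleukin 6 receptor, was dim at 6.20.

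Cytokines and chemokines gave signal in few cases. Of 35 chemokines, 25 were at the floor and 10 dim. Of 37 other cytokines, 25 were at the floor. LTB, a membrane lymphotoxin that organises lymphoid tissue, was high at 9.98, its partner LTA middle at 7.95, and TGFB1 middle at 9.13. CSF3, a granulocyte growth factor, and IL11 were read at 7.48 and 7.07, just above the dim limit. TNF was dim at 6.28, and IL6 and IL10 (5.21) were at the floor.

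Innate sensing was uneven. Toll-like receptor 10, a B cell receptor of uncertain ligand, was middle at 8.23, as was the TLR-like receptor CD180 with its partner LY86 (8.18 and 8.41). TLR1 and TLR6 were dim at 6.90 and 6.75. The RNA sensors TLR7 (4.84) and TLR8 (4.86) and the surface receptors TLR2, TLR4 and TLR5 (5.26, 4.90 and 4.93) were at the floor. The adaptor MYD88 was middle at 8.50 and UNC93B1, the chaperone of endosomal receptors, at 7.55. TASL, the adaptor between these receptors and IRF5, was dim at 5.65, close to the floor limit, IRF5 itself was at the floor (5.53), and SLC15A4, the transporter TASL binds, was middle at 9.04. Cytosolic sensors were dim or at the floor, with CGAS at 5.73, STING1 at 5.72, IFIH1 at 5.81 and RIGI at 5.51.

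Interferon receptors were above the dim limit, and most interferon response genes were not. The type I receptor chains IFNAR1 and IFNAR2 were middle at 8.79 and 8.04, JAK1 was high at 9.28, and TYK2 and STAT2 middle at 8.54 and 7.30. IRF9, the partner of STAT2 in a transcription complex, was dim at 6.91. Its 2 probe sets that also list another gene were at 6.54 and 7.58. Of 31 interferon response genes, 0 were high, 6 middle, 14 dim and 11 at the floor. The middle ones included EIF2AK2, the RNA-activated kinase (8.35), and IFITM2, a membrane restriction factor (8.95). MX1 (5.21), RSAD2 (5.06), IFIT1 (5.38) and OAS3 (5.22), antiviral effectors, were at the floor, and ISG15, a ubiquitin-like modifier, was dim at 6.95.

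Other surface molecules were divided. Of 82 genes with CD symbols, 11 were high (13.4%) and 33 at the floor (40.2%), near the background shares of 10% and 35.5%. The high ones included the tetraspanins CD53, CD81 and CD37 (10.84, 10.43 and 9.83) and CD47, the signal that protects cells from phagocytosis (9.98). Of 20 Fc and complement receptors, 14 were at the floor. They included CR2, the complement receptor and virus receptor of B cells (4.96), FCER2 (5.35), FCGR2B, the inhibitory IgG receptor (4.91), and FCMR, the IgM receptor (5.42). Integrins were few. The beta chains ITGB1, ITGB2 and ITGB7 were middle at 8.65, 8.69 and 8.52, with the alpha chains ITGAL at 8.03 and ITGAV at 7.13, and ITGA4 was dim at 6.75. Of 43 receptor tyrosine kinases, 30 were at the floor and 12 dim. MET, the hepatocyte growth factor receptor, was the exception at 7.60. The checkpoint ligands CD274 and PDCD1LG2 were at the floor (4.90 and 4.90), and so was CD58 (5.39), the ligand of CD2, whereas CD48 was high at 10.28.

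**Figure D3:**
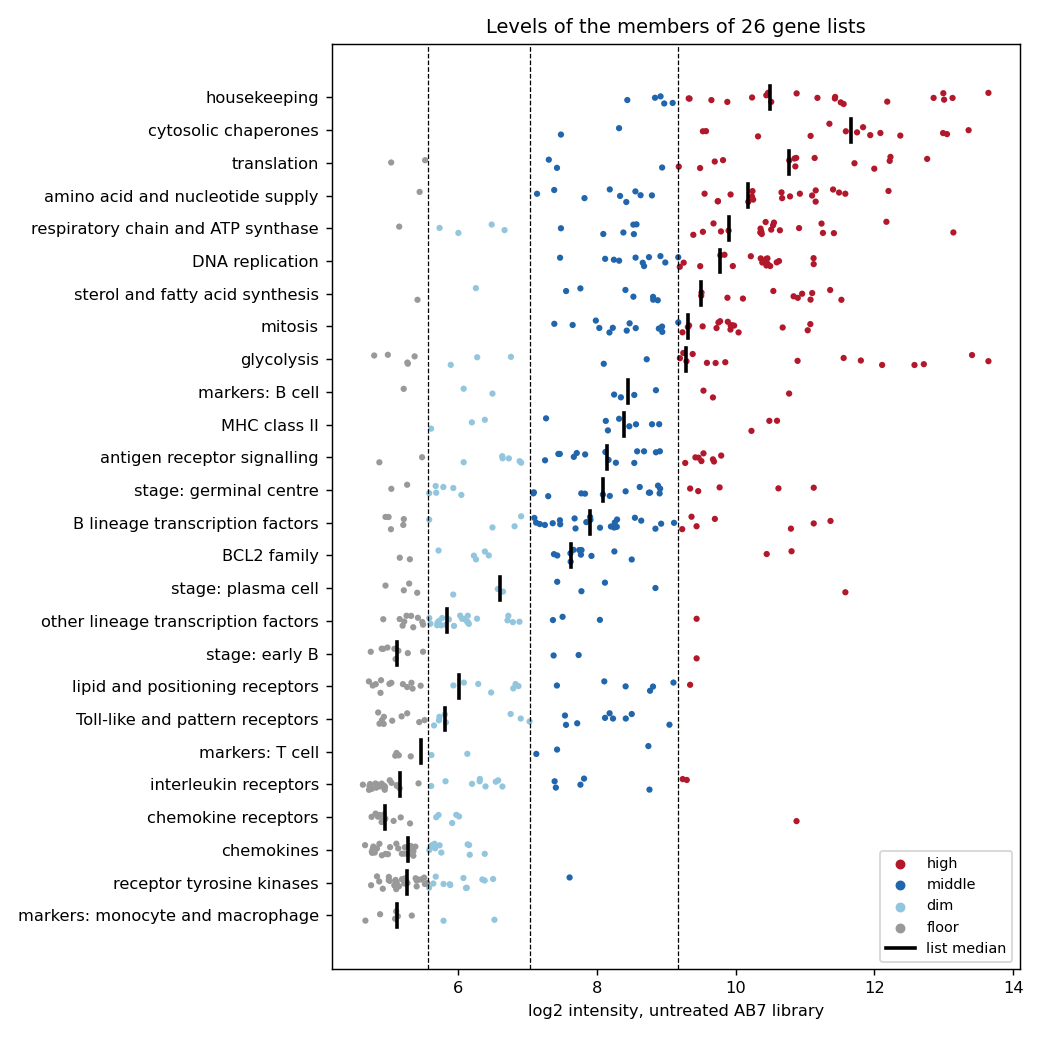
Log2 intensity of the members of 26 gene lists in the untreated library, 1 point per gene coloured by band, with the list median as a black bar and the 3 limits (5.56, 7.04 and 9.17) as dashed lines. Chaperone and translation lists have medians of 11.67 and 10.77. B cell marker, antigen receptor, germinal centre and B lineage factor lists lie near 8, and the plasma cell list at 6.61. Early B cell, chemokine, receptor tyrosine kinase and monocyte lists have medians below the floor limit.

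Survival genes lay mainly in the middle band. Of the 20 members of the BCL2 family, 2 were high, 11 middle, 5 dim and 2 at the floor. MCL1, a short-lived protector of mitochondria, was high at 10.80, and so was PMAIP1 (NOXA), a BH3-only protein that binds it, at 10.45. BCL2 itself was dim at 6.26, BCL2A1 was at the floor (5.30), and BCL2L1 (BCL-XL) was middle at 7.38. The pore formers BAX and BAK1 were middle at 7.92 and 8.25. Of the BH3-only triggers, BID (8.50), BCL2L11 or BIM (7.74), BMF (7.66), HRK (7.78), BAD (7.77) and BBC3 or PUMA (7.43) were all middle, and BIK was dim (6.44).

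The core caspase machinery was in the middle band, and of 27 caspase and IAP genes 2 were high, 18 middle, 4 dim and 3 at the floor. The initiators CASP9, CASP8 and CASP2 were at 8.44, 7.28 and 8.96, and the executioner CASP6 at 7.69. APAF1, the scaffold of the apoptosome, was at 7.14, and CYCS, cytochrome c, was high at 9.74. The inhibitor BIRC3 was high at 10.77 and its relatives BIRC2 and XIAP middle at 8.96 and 7.84. CFLAR, the inhibitor of caspase 8, was dim at 5.74, and of the necroptosis pair RIPK3 was at 6.34 and MLKL at 5.64, both dim. CASP10, CASP5 and CASP14 were at the floor. The death receptor TNFRSF10A for TRAIL was high at 9.68, its relative TNFRSF10B middle at 8.85 and FAS middle at 7.15. Receptors of B cell survival factors were middle, with TNFRSF13C, the BAFF receptor, at 7.59, CD40 at 7.48 and TNFRSF13B at 7.29, while TNFRSF17, the plasma cell receptor of the same ligands, was at the floor (5.41).

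**Figure D4:**
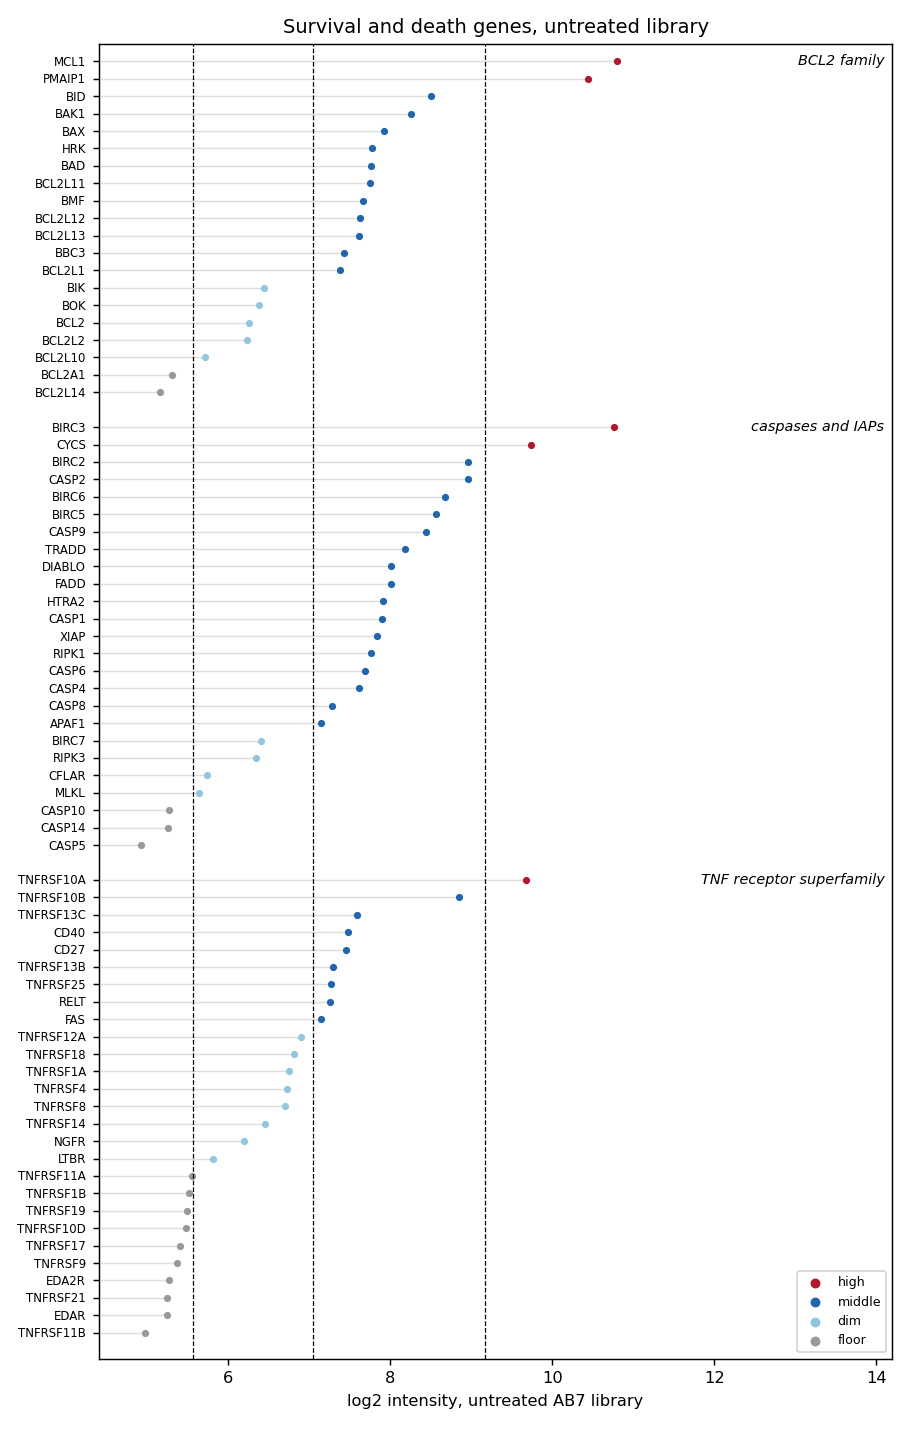
Log2 intensity of BCL2 family, caspase and IAP, and TNF receptor superfamily genes in the untreated library, 1 point per gene for the members reported here coloured by band, with the 3 limits (5.56, 7.04 and 9.17) as dashed lines. MCL1, PMAIP1, BIRC3, CYCS and TNFRSF10A are the 5 members in the high band.

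Genes of dividing cells were high. Of 29 DNA replication genes, 18 were high and 11 middle, with 0 dim or at the floor. All 6 members of the MCM2 to MCM7 helicase were high, from 10.36 for MCM2 to 11.12 for MCM7, and so were PCNA (10.44) and TYMS (10.59). Of 29 mitosis genes, 16 were high and 13 middle. The list included cyclin CCNB1 (11.08), the kinases PLK1 (10.68) and AURKA (9.89), TOP2A (9.94) and the proliferation marker MKI67 (9.75), which were all high. Among D cyclins, CCND3, the partner used in germinal centre B cells, was middle at 8.47, CCND1 was dim at 6.41 and CCND2 was at the floor (5.43). CDK4 was high at 10.03 and CDK6 middle at 8.52. The inhibitor CDKN1A (p21) was dim at 6.70, CDKN1B (p27) was middle at 7.32 and CDKN2A, the gene of p16 and ARF, was middle at 7.38. RB1, RBL1 and RBL2 were middle at 8.10, 7.99 and 8.13.

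MDM2, a ubiquitin ligase, was high at 10.51. Among the 12 measured members of the MYC network, 0 were high. MAX was at 7.68, MLX at 7.96 and MGA at 7.59, MYCL was dim at 5.98 and MYCN was at the floor (5.39). MYC had no single-symbol probe set and is therefore outside the ranking. Of 23 measured genes from a list of those often mutated in Burkitt's lymphoma, 9 were high, 13 middle and 1 at the floor, namely BMP7 (5.27). SMARCA4, a chromatin remodelling ATPase, was high at 9.30 and RHOA, a small GTPase, at 11.34.

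Of 16 genes that mutate, switch and repair antibody genes, 6 were high, 8 middle, 2 dim and 0 at the floor. UNG, which removes uracil from DNA, was middle at 8.90. MSH6, a mismatch repair protein, was middle at 8.91. The error-prone polymerase POLH was middle at 8.83. The end-joining genes XRCC5, XRCC6 and PRKDC were high at 10.78, 11.46 and 9.90, and the ligase LIG4 was dim at 6.86. Of 18 DNA damage response genes, 2 were high and 16 middle, with PARP1 at 10.83 and CHEK1 at 10.24 in the high band.

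Partners of BCL6 were above the floor. Of 20 corepressor genes, 5 were high, 10 middle, 5 dim and 0 at the floor. HDAC1 was high at 11.75 and HDAC3, the deacetylase of the NCOR complexes, at 9.63. NCOR1, which binds the BCL6 BTB domain, was middle at 8.55, and BCOR, which binds the same site, was dim at 6.99, just under the dim limit. KDM1A, a lysine demethylase, was high at 9.95, and TBL1XR1, a core subunit of the NCOR complexes, at 10.17. Of the Polycomb complex, EZH2, EED and SUZ12 were above the dim limit, at 8.62, 8.43 and 10.20, SUZ12 in the high band, and JARID2, an accessory member, was at the floor (5.14). The maintenance methyltransferase DNMT1 and its guide UHRF1 were high at 9.67 and 9.96, while DNMT3A and DNMT3B were dim at 6.03 and 6.77. CREBBP and KMT2D, chromatin genes often mutated in lymphoma, were middle at 7.30 and 7.36.

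Signalling pathways shared with other tissues were mixed. In the NF-kB list, 3 of 20 were high, among them NFKB1 (9.56) and the inhibitor NFKBIA (9.94), with REL at 8.39 and RELA at 8.62. In the PI3K, FOXO and mTOR list, 3 of 24 were high, among them TXNIP (11.28) and RHEB (9.25). FOXO1, a dark zone factor, was middle (8.29), and so were the kinases AKT1 and AKT2 (8.64 and 8.74). For Notch, the DNA-binding factor RBPJ was high at 9.32, NOTCH1 was dim (6.91) and NOTCH2 at the floor (5.41), and the ligands JAG1 and JAG2 were middle (7.21 and 7.59). For TGF-beta, the signal carriers SMAD2 and SMAD4 were high at 9.87 and 9.66 and the receptor BMPR1A at 9.18, the receptors TGFBR1 and TGFBR3 were middle (9.04 and 8.46) and TGFBR2 was dim (6.06). For Wnt, CTNNB1 (beta-catenin) was high at 10.15, and of the 33 genes in that list 20 were dim and 7 at the floor.

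Many metabolic genes were high. Of 25 glycolysis genes, 15 were high, against a background of 10%, and 5 were at the floor. ENO1, LDHA, LDHB, ALDOA and PKM were high at 13.41, 12.58, 12.71, 9.58 and 12.11. Of forms known from other tissues, ENO2 of neurons (5.27) and LDHC of testis (4.79) were at the floor, PGAM2 of muscle was dim (6.76) and ALDOC of brain was middle (8.72). The glucose transporter SLC2A1 was high at 9.85 and its relative SLC2A3 at the floor (4.98). HK2 was high (9.71), HK1 middle (8.10) and HK3 at the floor (5.37). In the respiratory chain list, 20 of 31 were high, and its muscle forms COX6A2 (6.67) and COX7A1 (5.15) were dim and at the floor. All 8 genes of the mitochondrial genome that were measured were high, from 9.53 to 13.41.

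Supply of amino acids and nucleotides was the richest metabolic list, with 19 of 29 high and a median of 10.18. ODC1, which starts polyamine synthesis, was at 12.20, SLC7A5, a transporter of large neutral amino acids, at 11.58, and the serine pathway enzymes PHGDH, PSAT1 and SHMT2 at 11.15, 11.40 and 11.15. The mitochondrial folate enzyme MTHFD2 was high at 11.49 and the purine enzymes PAICS, GART and ATIC at 11.10, 10.23 and 10.92. SLC7A11, the cystine transporter, was high at 9.74, and CHAC1 and CTH were middle at 8.18 and 8.33. Of 21 sterol and fatty acid genes, 12 were high, with HMGCS1 at 11.36, SQLE at 10.89 and SCD at 11.08. The transferrin receptor TFRC was high at 11.43, as were the ferritin chains FTH1 and FTL (12.54 and 11.60), while SLC40A1, the iron exporter, was at the floor (4.82). Of 23 hypoxia and redox genes, 6 were high, 12 middle, 2 dim and 3 at the floor. PRDX1, a peroxidase, was high at 11.70 and SOD1, a superoxide dismutase, at 11.47, whereas catalase (CAT) was middle at 8.15 and NQO1, a quinone reductase, was at the floor (5.55).

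Protein synthesis and folding supplied the top of the ranking. Of 72 cytosolic ribosomal protein genes, 54 were high and 3 at the floor, with a median of 11.57, and 38 of them were among the 200 top genes. Mitochondrial ribosomal proteins had a median of 8.86, with 22 of 74 high. Of 38 proteasome genes 27 were high, and of 34 SR and hnRNP splicing genes 26. Cytosolic chaperones had 14 of 16 in the high band, including HSPA8 (13.36), HSP90AB1 (12.99) and the chaperonin subunit TCP1 (13.05). In the endoplasmic reticulum, HSPA5 (12.06), PDIA6 (12.33) and CANX (12.15) were high, and the stress sensor ERN1 was dim (6.79). Outside small RNA, unnamed and ribosomal protein genes, the top 10 were GAPDH (13.64), ENO1, the mitochondrial COX1 (13.41) and COX2 (13.37), HSPA8, CYTB (13.29), ATP5F1B (13.14), ACTG1 (13.13), RACK1 (13.09) and IGHA1. The highest of all was RN7SL1, the RNA of the signal recognition particle, at 14.04. LCP1, the actin bundler of blood cells, and ARHGDIB, a GTPase regulator of blood cells, were among the top 30 at 12.44 and 12.42.

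Families with many members showed where single genes stood out. Of 371 solute carriers, 32 were high and 144 at the floor, near the background shares of 10% and 35.5%. Of 465 ZNF zinc finger genes, 3 were high, ZNF207 (10.50), ZNF330 (9.85) and ZNF587, and 156 were at the floor. Of 40 histone genes, 7 were high, among them H2BC14 (12.72) and the linker histone H1-4 (12.41). Replication-dependent histone RNAs mostly lack a poly(A) tail, and the labelling started from random hexamers. Histone genes also share sequence, so single members are uncertain. Of 132 small nucleolar RNAs, 14 were high (10.6%, near the background of 10%), with SNORA73A at 11.42.

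Targets of lymphoma drugs were spread over the bands. Of 25, 11 were high, 9 middle, 3 dim and 2 at the floor, MS4A1 and ROR1 (5.47). XPO1, the nuclear exporter, was high at 10.83, PRMT5, an arginine methyltransferase, at 10.86, and CD52 was middle at 9.03. The efflux pumps ABCB1 and ABCG2 were at the floor (4.95 and 4.84), ABCC1 was middle (7.87), and the nucleoside transporter SLC29A1 and the kinase DCK, which activates cytidine drugs, were high at 9.63 and 9.34.

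The promoters of these genes are shown next, because bands and families differed in their sequence. Promoter windows of 300 bases, 250 before and 50 after the start, came from RefSeq (GRCh38.p14). Of the genes ranked, 13708 protein-coding ones had a window, and the 9982 with 1 annotated start were used. The 250 bases before the start are printed for 8 genes, chosen after their values were seen, with capitals marking the motifs searched on both strands. These were the TATA box TATAAA, the Y box core CCAAT, the octamer core ATTTGCA, the E-box CACGTG, the ETS-type core CCGGAA, the NRF1-type core CGCATGC and the SP-type GC box GGGCGG. Capitals run together where motifs touch or overlap. JCHAIN (chr4:70666509-70666758, minus strand), CD79A (chr19:41877029-41877278, plus strand) and CD74 (chr5:150412911-150413160, minus strand) were high. HLA-DMB (chr6:32941029-32941278, minus strand) and HLA-DQA1 (chr6:32637156-32637405, plus strand) were middle. MCM6 (chr2:135876444-135876693, minus strand) was high, and IRF4 (chr6:391502-391751, plus strand) and RAG1 (chr11:36510103-36510352, plus strand) were at the floor.
JCHAIN: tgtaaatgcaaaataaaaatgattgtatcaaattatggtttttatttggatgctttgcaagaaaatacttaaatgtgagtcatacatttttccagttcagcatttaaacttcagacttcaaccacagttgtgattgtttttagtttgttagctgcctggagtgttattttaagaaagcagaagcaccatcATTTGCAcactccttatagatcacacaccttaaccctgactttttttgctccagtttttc
CD79A: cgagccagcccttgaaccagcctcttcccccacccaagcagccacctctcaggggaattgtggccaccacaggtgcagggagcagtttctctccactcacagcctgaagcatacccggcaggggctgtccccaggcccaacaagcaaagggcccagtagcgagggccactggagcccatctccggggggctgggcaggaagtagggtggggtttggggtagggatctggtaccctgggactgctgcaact
CD74: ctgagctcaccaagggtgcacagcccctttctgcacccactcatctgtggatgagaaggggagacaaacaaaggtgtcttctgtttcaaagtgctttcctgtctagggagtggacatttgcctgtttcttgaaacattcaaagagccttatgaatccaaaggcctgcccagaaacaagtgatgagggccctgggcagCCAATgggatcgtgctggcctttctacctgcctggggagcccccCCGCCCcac
HLA-DMB: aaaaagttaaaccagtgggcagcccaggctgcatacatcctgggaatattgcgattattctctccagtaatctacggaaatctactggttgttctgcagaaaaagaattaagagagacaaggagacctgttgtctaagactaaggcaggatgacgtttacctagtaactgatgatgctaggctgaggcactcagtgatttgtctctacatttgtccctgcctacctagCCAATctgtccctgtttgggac
HLA-DQA1: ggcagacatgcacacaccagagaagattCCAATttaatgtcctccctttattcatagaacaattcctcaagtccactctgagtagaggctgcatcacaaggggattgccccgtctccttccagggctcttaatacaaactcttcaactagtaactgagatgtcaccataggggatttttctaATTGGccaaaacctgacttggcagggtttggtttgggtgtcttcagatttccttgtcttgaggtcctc
MCM6: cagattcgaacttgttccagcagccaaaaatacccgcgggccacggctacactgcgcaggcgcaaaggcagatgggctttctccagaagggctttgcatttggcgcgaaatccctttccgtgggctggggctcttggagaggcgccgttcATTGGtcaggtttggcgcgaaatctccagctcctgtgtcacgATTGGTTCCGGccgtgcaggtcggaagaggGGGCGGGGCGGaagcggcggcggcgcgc
IRF4: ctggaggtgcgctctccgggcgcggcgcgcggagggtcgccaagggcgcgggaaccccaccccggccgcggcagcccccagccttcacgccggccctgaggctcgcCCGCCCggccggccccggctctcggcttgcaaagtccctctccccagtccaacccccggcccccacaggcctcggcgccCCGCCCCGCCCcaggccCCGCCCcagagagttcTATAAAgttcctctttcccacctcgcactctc
RAG1: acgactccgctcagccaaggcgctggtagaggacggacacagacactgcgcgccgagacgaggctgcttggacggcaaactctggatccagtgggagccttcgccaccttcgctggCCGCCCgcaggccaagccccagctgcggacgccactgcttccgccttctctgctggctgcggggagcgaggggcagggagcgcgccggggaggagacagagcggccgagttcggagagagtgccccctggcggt

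In these 8 stretches the CpG count was 0 for JCHAIN, 4 for CD79A, 2 for CD74, 3 for HLA-DMB and 1 for HLA-DQA1, and 24 for MCM6, 28 for IRF4 and 25 for RAG1. The B cell genes with signal shown here were poor in CpG, and the floor genes IRF4 and RAG1 were rich in it, so among these genes CpG count did not follow the band. Over all genes it did. The median CpG count per 300 bases was 28 for high genes, 28 for middle, 23 for dim and 9 for floor genes, with quartiles of 22 and 35 for high and 3 and 26 for floor. The 261 windows of olfactory receptor genes, the family that set the floor limit, had a median of 1 and were not left out. The 6 B cell markers with a window had a median of 7 and the 13 germinal centre genes a median of 9, against 30 for 18 DNA replication genes and 30 for 21 housekeeping genes. Other B cell lists differed, with 31 for 16 B lineage transcription factors and 33 for 5 germinal centre zone genes. The 11 early B cell genes, a list mostly at the floor, had a median of 8. Single genes varied too, as PAX5 in the middle band had 30 and RAG2 at the floor had 0.

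Motifs differed between bands as well. The ETS-type letters CCGGAA were in 41.3% of high, 37.3% of middle, 20.9% of dim and 10.7% of floor promoters, and in 24.9% of all. The TATAAA letters were in 6.53% of high, 3.97% of middle and 17.1% of floor promoters, and in 9.59% of all. The high band was uneven in this when its genes were grouped by level. The share was 24.5% of the 49 promoters above a level of 12 and 12.1% of the 124 in the next group down. In the group below those, with 333 promoters, it was 4.20%. The top group thus held TATAAA letters more often than the floor. The E-box CACGTG, which MYC and MAX bind among others, was in 12.6% of high and 5.13% of floor promoters, and in 8.93% of all. The 261 olfactory receptor windows held CCGGAA in 0.383% and TATAAA in 32.6%, and floor shares were not computed without them. A match is a description of the letters and does not show a site in use. CCGGAA and CACGTG themselves contain CG, and the shares were not set at a fixed CpG count, so their part in the differences was not tested.

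Families had their own patterns. All 7 HLA genes with a window held CCAAT on either strand, as did 7 of 8 class II list genes, against 37.2% of all promoters. The class II Y box is a known CCAAT element, and in HLA-DMB and CD74 the letters began 22 and 53 bases before the start. A start at C followed by at least 4 pyrimidines, the pattern of terminal oligopyrimidine (TOP) mRNAs whose translation responds to growth signals, was found in 34 of 49 ribosomal protein genes (69.4%) and in 4.75% of all genes. The share was 3.11% at the floor, 10.7% in the high band and 38.8% of the 49 genes above a level of 12. Without ribosomal protein genes it was 16.7% of the other 30 in that top group. On the plus strand 18 of 25 ribosomal protein genes had it and on the minus strand 16 of 24. The ATTTGCA core of the octamer, which POU2F factors bind, was in 3.24% of all promoters, 2.12% of high and 5.16% of floor promoters. In JCHAIN it began 60 bases before the start. Of 31 histone gene windows 10 held it, and 29 of 31 also held CCAAT and 19 held TATAAA letters. The CCAAT letters were in 10 of 11 windows of endoplasmic reticulum folding genes and in 16 of 21 of mitosis genes. CCGGAA was in 150 of 295 windows of ZNF genes (50.8%), a family with 3 members in the high band and a median level of 6.31, near the 6.26 of all genes.

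**Figure D5:**
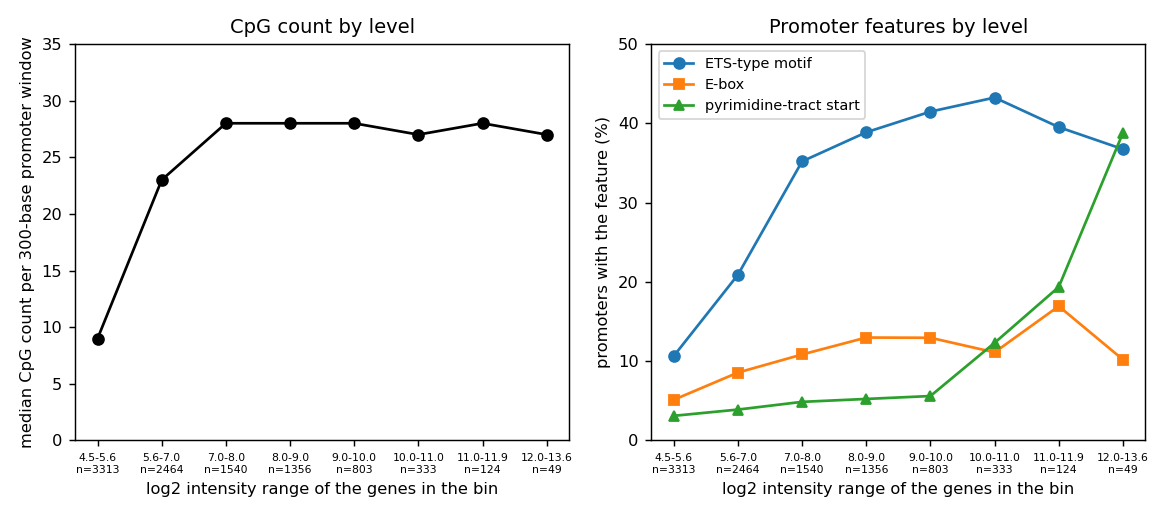
Left, median CpG count per 300-base promoter window of genes grouped by log2 intensity. Right, share of promoters in each group with an ETS-type motif, an E-box or a pyrimidine-tract start, in percent. CpG count rises from 9 at the floor to 27 or 28 above the dim limit, and the pyrimidine-tract share goes from 3.11% to 5.60% up to a level of 10 and reaches 38.8% in the top group.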

How the data were processed

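RNA of 1 untreated culture was hybridised to a 1-colour array after random-hexamer amplification, per the labels' protocols. Values used are the log2 intensities deposited by the authors in an additional processed table. The software and the normalization behind them are not stated in the labels or headers. The values equal log2(2 to the power of the series matrix value + 16) within 0.05 at all 28869 probe sets, so that second deposited table, used as an alternative, is not independent. It also holds 4428 probe sets that the first lacks. The 6 columns of the other libraries were not used.

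Probe sets with exactly 1 symbol in the platform annotation were kept (19933, beside 2195 with several symbols and 6741 with none). Symbols were updated through RefSeq names (17016 probe sets by accession, 841 by symbol, 836 by an older symbol, 1240 kept as given). Each gene took its highest probe set. Bands, lists and promoter motifs were computed in Python 3.11.15 with pandas 2.3.3 and numpy 2.4.6, and the banding was tested on simulated data. With 1 array there is no replicate, so no test, p-value or standard deviation was possible, and that number sets the precision.

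The genes described, the 64 lists and the bands were chosen with earlier results of these data known. Named genes are BCL6, list members, the 30 highest genes outside small RNA, unnamed loci and ribosomal proteins, the 10 highest of each family, and the 10 whose probe sets differ most. The dim limit, the promoter analysis and the printed promoters were chosen after the values were seen. Alternatives were another floor, other high limits, the second table and the mean of a gene's probe sets. Some list members are counted in their lists but are not reported here by name.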

Additional observations from a re-analysis of the deposited data

How the results depend on the processing

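Band limits are conventions, and the counts followed them. With the high limit at the 80th or 95th percentile in place of the 90th, 3817 or 955 genes were high instead of 1909, and 396 or 158 list genes instead of 250. With the floor set from the second silent reference, 11834 genes were at the floor instead of 6768, and 575 list genes instead of 306. The other settings tried kept these counts within 1.5 times. With the floor at the 99th percentile of olfactory receptor genes, 8257 genes were at the floor. With the series matrix table the count was 6759, and with the mean of all probe sets of a gene 6801. Of 128 counts of single lists, high and floor, 17, 42, 30 and 27 moved by over 1.5 times with the 99th percentile floor, the second reference and the 80th and 95th percentile high limits. None moved with the series matrix table or with the mean of probe sets. Taking all annotated starts, an alternative added after the data were seen, put CCGGAA in 37.8% of high promoters instead of 41.3% and TATAAA in 15.5% of floor promoters instead of 17.1%.

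No paired analysis was possible because there is 1 untreated library and no replicate, and for the same reason none was left out. The high limit lay 3.62 above the floor limit on the log2 scale. That is a gap between 2 chosen limits, and gene levels reached 14.04 against a floor limit of 5.56.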

Other observations

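Probe sets that list several symbols were left out of the ranking, and some of them read well-known genes. The probe set that lists MYC together with another symbol was at 7.62, in the middle band. The one that lists ATM, the kinase of the DNA break response, was at 7.62, and the one that lists MEF2B, a germinal centre factor, at 8.45. Those that list TLR9, the DNA sensor of B cells, were at 6.47 and 8.79, and the one that lists SLC3A2, the partner chain of SLC7A5, at 10.85. For EEF1A1, whose single-symbol probe set was at 9.18, the 2 probe sets with several symbols were at 13.72 and 13.76. For BCL2L14, at 5.16 by its single-symbol probe set, the probe set shared with another symbol was at 11.90.

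Of the 2195 probe sets with several symbols, 340 (15.5%) were at or above the high limit, against 123 (1.82%) of the 6741 with none. Among the silent reference genes, 1 of 372 olfactory receptor genes and 4 of 57 keratin-associated protein genes lay above the dim limit, the olfactory one at 9.12.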
